A study of Mus musculus with 4 samples.

Results

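COX2 and ND4L are the transcripts of mitochondrial DNA that the arrays measured under a gene name. They were taken by gene symbol in the annotation of the array, and each had 1 spot, so they are 2 of 19088 measured genes and 2 of 45220 spots. Mitochondrial DNA has 13 protein genes in the RefSeq gene table, of which the other 11 had no spot under their own name. A nuclear gene that shares the name COX2, the prostaglandin synthase Ptgs2, is a different gene and no member.

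The arrays compared cybrids, cells that join the nucleus of a line without mitochondrial DNA to the mitochondria of a donor. Both lines are LMEB3 fibroblasts and differ by donor: LMEB3(mtB6), the wild type control, has mitochondria of C57BL/6J mice, and LMEB3(mtBALB), called the mutant, has those of BALB/cJ mice. Cells were at passage 3, in medium with 4.5 g/L glucose and 10% fetal bovine serum. Each of 4 arrays held 1 mtB6 and 1 mtBALB culture of the same replicate number, with mtB6 in the Cy5 dye on replicates 1 and 3 and in Cy3 on replicates 2 and 4. By its title the study used independent clones, but which clone went on which array is not stated, so p-values cover the spread between these pairs.

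A deposited value is a log ratio of the 2 cultures of an array. Its base is not stated in the sources and was taken as 2, on which every fold below rests. The numerator's line is not named in the sources, so signs below give a side of the ratio and never the line with more transcript. Ratios also carry no level: fewer mitochondria or less mitochondrial DNA per cell and less RNA per copy cannot be told apart. Among fibroblast markers, 7 of 12 genes had a spot that was never dim (dim means a value shared exactly by at least 3 spots of an array), against 3 of 6 leukocyte, 0 of 4 epithelial and 0 of 4 endothelial markers. Of all genes, 9774 of 19088 had such a spot. The fibroblast and leukocyte shares are near that, so these counts do not identify the cell type. Brightness itself was not among the values used, so the cell type was checked no further.

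The mitochondrial genome is transcribed from both strands as long precursors that the organelle's own RNA polymerase makes. Transfer RNAs lie between most of the protein genes, and cutting them out releases the messengers, which then receive short poly(A) tails. COX2 encodes the subunit of cytochrome c oxidase (complex IV) that takes electrons from cytochrome c at its copper centre. ND4L encodes a small membrane subunit of the proton-pumping arm of NADH dehydrogenase (complex I). In the RefSeq gene order COX2 lies between the genes of the transfer RNAs for aspartate and lysine. ND4L follows that of the transfer RNA for arginine and overlaps ND4, with which it shares a messenger. A spot for ND4L can therefore read the joint ND4L and ND4 messenger, and a spot for either gene can also read nuclear copies of mitochondrial DNA.

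COX2 differed strongly between the cultures of 3 pairs, but not to the same side. Its log2 ratios on replicates 1 to 4 were 1.36, 0.22, -1.22 and 0.90. These are differences of 2.56-fold, 1.16-fold, 2.33-fold and 1.87-fold between the cultures of a pair. Replicates 1 and 4 stood high, replicate 3 stood low and replicate 2 lay near 0. The ratio on replicates 1, 3 and 4 was farther from 0 than that of nearly all genes, with 0.587%, 0.592% and 0.555% of the 19088 genes as far or farther. On replicate 2 that share was 26.9%.

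ND4L had the same order of pairs. Its log2 ratios on replicates 1 to 4 were 1.17, -0.15, -0.63 and 0.81, or 2.24-fold, 1.11-fold, 1.55-fold and 1.75-fold. As with COX2, replicates 1 and 4 were high and replicate 3 was lowest. On replicates 1 and 4, 0.938% and 0.760% of all genes lay as far from 0, against 42.4% on replicate 2 and 4.30% on replicate 3. Neither spot was dim on any array.

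**Figure D1:**
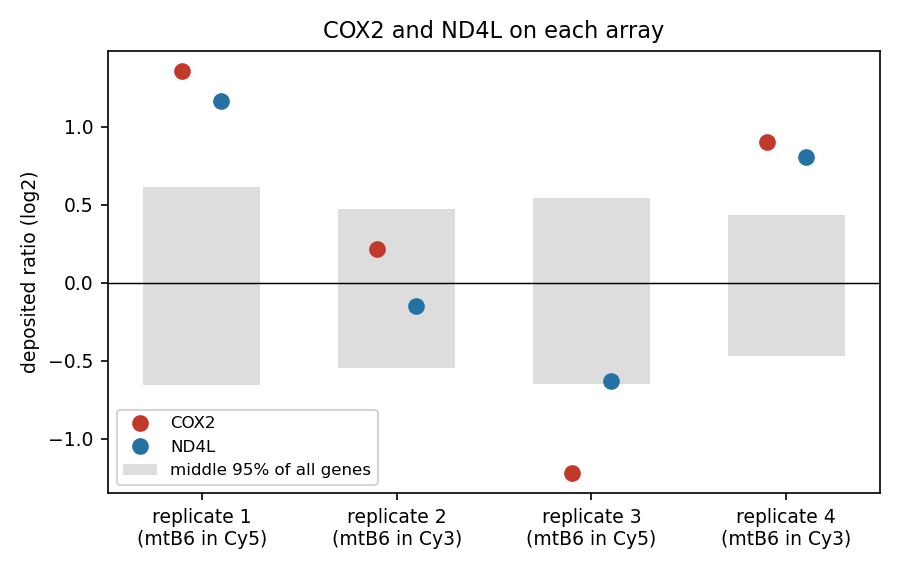
Log2 ratio of COX2 (red) and ND4L (blue) on each of 4 arrays, with the dye of the mtB6 culture under the replicate. The grey bars span the middle 95% of all 19088 genes of the array, and both members lie above the bar on replicates 1 and 4, while on replicate 3 COX2 lies below it and ND4L, at -0.63, just inside.

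Neither gene separated the lines over the 4 pairs. The mean log2 ratio of COX2 was 0.31 ± 1.12 (SD, n = 4), with a 95% interval from -0.91 to 1.54 and an adjusted p = 0.9997 in limma. That of ND4L was 0.30 ± 0.83 (SD, n = 4), with an interval from -0.64 to 1.24 and an adjusted p = 0.9997. Of all genes, 0% passed the adjusted threshold of 0.05 (0 of 19088 in limma), and 3.64% (694) had an unadjusted p under 0.05, which neither member had (0.525 for COX2 and 0.436 for ND4L). An exact two-sided sign-flip permutation test over the arrays gave p = 0.625 for COX2 and p = 0.5 for ND4L, and with 4 arrays this test cannot reach a p under 0.05. The intervals are wide: a line difference of either member of up to 0.91 (COX2) or 0.64 (ND4L) on the negative side, or 1.54 and 1.24 on the positive side, lies within them.

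The means rested on single pairs. Without replicate 1 the line difference was -0.33 for COX2 and -0.15 for ND4L. Without replicate 3 it was 0.96 for COX2, with an interval from 0.50 to 1.42, and 0.75 for ND4L, with an interval from 0.13 to 1.36. Those intervals leave out 0, but limma's adjusted p over all genes was 0.464 and 0.537. Without replicate 4 the values fell to 0.14 and 0.06, and without replicate 2 they were 0.49 and 0.54.

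**Figure D2:**
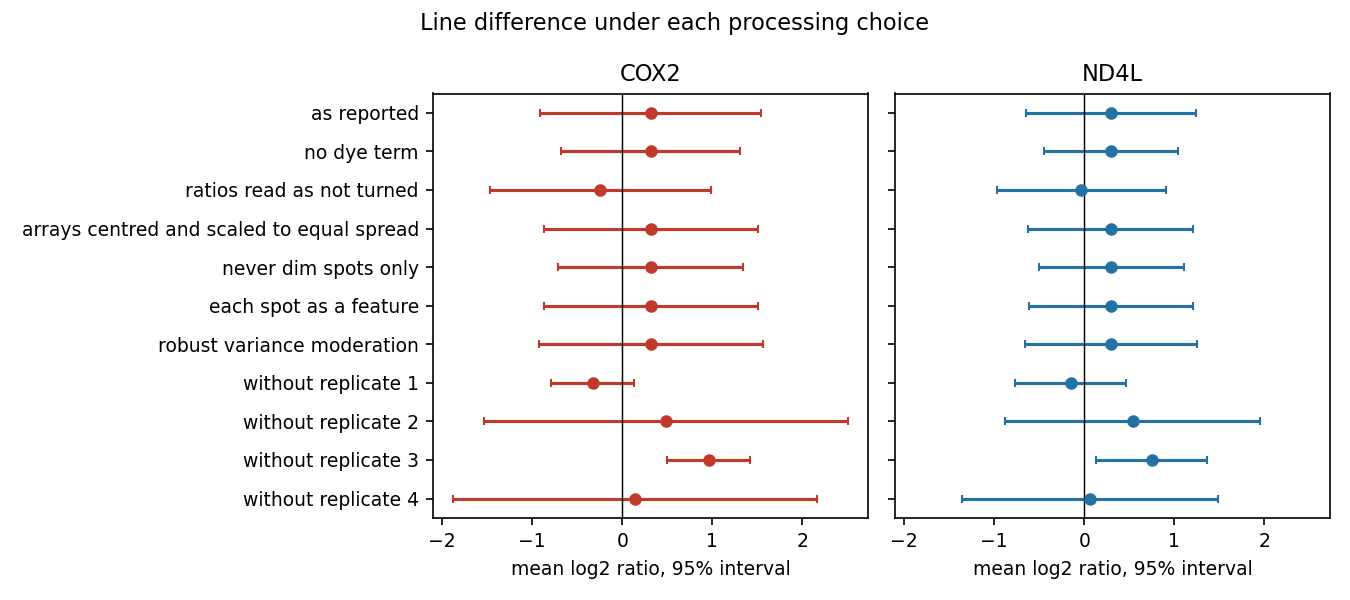
Line difference of COX2 (left) and ND4L (right) as reported and under 10 other processing choices; points are mean log2 ratios from limma and bars their 95% intervals. For both genes the point lies below 0 when ratios are read as not turned and without replicate 1, and the interval leaves out 0 only without replicate 3.

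Pairs of the same dye orientation differed from each other. Replicates 1 and 3 had mtB6 in the same dye, and COX2 differed between them by 2.58 and ND4L by 1.79 on the log2 scale, with opposite signs. Replicates 2 and 4 also shared an orientation and differed by 0.68 for COX2 and 0.95 for ND4L. The dye effect in limma, the part of a ratio that changes sign with the orientation, was -0.25 for COX2 (95% interval -1.47 to 0.98, adjusted p = 0.880) and -0.03 for ND4L (-0.97 to 0.91, adjusted p = 0.984). These values rested on single arrays: without replicate 1 the dye effect of COX2 was -0.89 (95% interval -1.35 to -0.43, adjusted p = 0.360 in limma), and without replicate 3 it was 0.40. That of ND4L ran from -0.48 without replicate 1 to 0.42 without replicate 3, so the part of the dye in the members' ratios is not settled by 4 arrays. Across all genes 0% passed for the dye effect (0 of 19088 in limma, 8.98% at an unadjusted p under 0.05). If the authors had not turned the swapped arrays to a common direction, COX2 would read 1.36, -0.22, -1.22 and -0.90 and ND4L 1.17, 0.15, -0.63 and -0.81. Replicates 1 and 3 oppose each other under either reading, since both have the same orientation.

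The spread of both members over pairs lay in the upper tail of all genes. The SD over pairs was 1.12 for COX2 and 0.83 for ND4L, and that of the median gene was 0.18. COX2 ranked 111th and ND4L 264th by SD among all genes, so that 0.582% and 1.38% of genes had an SD at least as large. Among 9774 genes with a spot that was never dim the shares were 1.04% and 2.49%. Replicate 3 carried part of the members' spread: without it 3.71% and 2.25% of all genes had an SD as large, and without replicate 2 the share for COX2 was 0.309%. In 90 genes with at least 10 spots that were never dim, the SD between spots of a gene on an array had a median of 0.09 to 0.14 on the log2 scale, which holds technical error within an array and no difference between cultures. Each member rests on 1 spot, so its own spot error could not be measured.

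**Figure D3:**
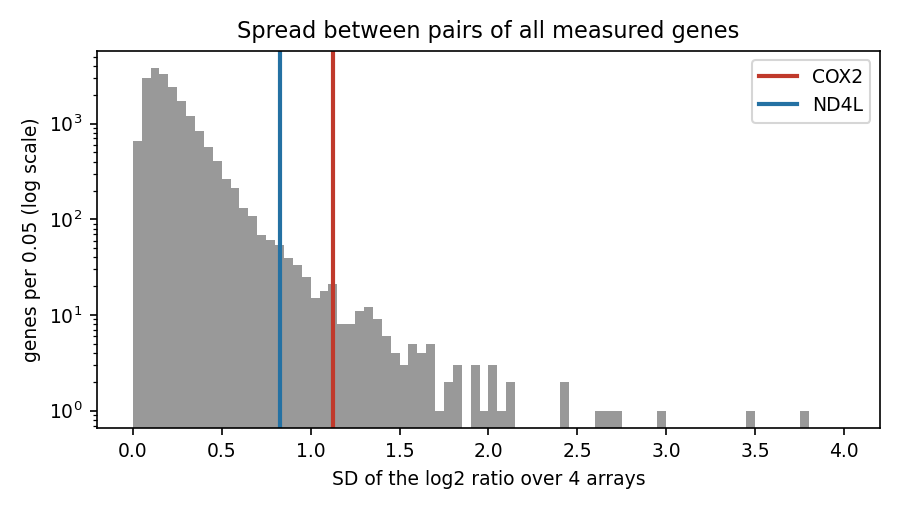
Number of genes (log scale) by the SD of their log2 ratio over 4 arrays, with COX2 (red line, 1.12) and ND4L (blue line, 0.83) marked. Both lie in the upper tail of a distribution whose median is 0.18.

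COX2 and ND4L were not told apart within pairs. COX2 minus ND4L was 0.19, 0.37, -0.59 and 0.10 on replicates 1 to 4, a mean of 0.02 ± 0.42 (SD, n = 4; exact two-sided sign-flip permutation test, p = 1). COX2 lay farther from 0 than ND4L on every array, to the positive side on replicates 1, 2 and 4 and to the negative side on replicate 3. With 4 arrays this test could not have passed 0.05, and it does not show that both transcripts moved alike. Their likeness to each other was close beside that of other genes. By Euclidean distance over the 4 log2 ratios (the root of the summed squared differences), ND4L ranked 5th among 19087 other genes by nearness to COX2, at 0.73, where the median gene lay at 2.08. COX2 ranked 22nd by nearness to ND4L, where the median gene lay at 1.59. A gene at 0 on every array would lie at 2.05 from COX2 and 1.56 from ND4L, close to these medians. Both ranks therefore reflect in part the large ratios of the members, which few genes had. Those ranks depend on the arrays used: without replicate 1 they were 48 and 670, without replicate 4 they were 33 and 220, without replicate 3 they were 3 and 9, and without replicate 2 ND4L ranked 13th.

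The genes nearest COX2 included interferon-induced genes and histone genes. Samd9l, an antiviral factor, was nearest to both members, at 0.65 from COX2 and 0.48 from ND4L. Its log2 ratios were 1.29, -0.19, -0.96 and 0.48 on replicates 1 to 4. Genes known only by a clone or locus name are passed over here, which leaves out rank 2 for COX2 and rank 4 for ND4L. H2ac8, a histone H2A gene (1.32, -0.26, -1.03 and 0.43), ranked 3rd by nearness to COX2, and Trim30a ranked 4th. Trim30a is an interferon-induced ubiquitin ligase (1.32, -0.02, -1.87 and 0.78). The histone H2B gene H2bc14 (0.82, -0.30, -1.30 and 0.63), the H2B pseudogene H2bu1-ps (0.84, -0.25, -1.16 and 0.55) and Ptar1, a prenyltransferase subunit (0.74, 0.13, -1.25 and 0.41), followed. Near ND4L, beside Samd9l and H2ac8, lay Klf10, a transcription factor of TGF-beta signalling (1.14, -0.03, -0.30 and 0.44), and the histone H3 gene H3c1 (0.97, -0.13, -0.79 and 0.30). Emc9 of a membrane insertion complex (0.76, -0.07, -0.49 and 0.52) and the RNA-binding protein gene Igf2bp1 (0.87, -0.34, -0.53 and 0.33) were also among them. All of them were high on replicate 1, low on replicate 3 and above 0 on replicate 4, with no test of likeness made.

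**Figure D4:**
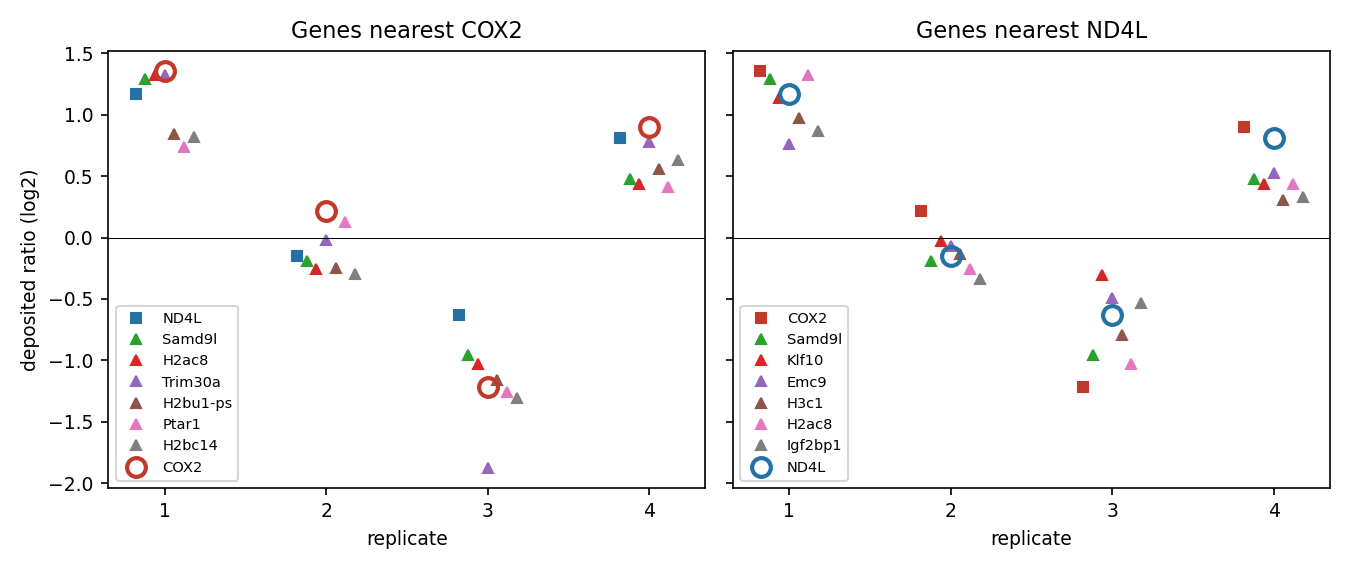
Log2 ratios on each array of COX2 (left, open circles) and ND4L (right, open circles) with the 6 named genes nearest to each (triangles) and the other member (squares). The nearest genes share the high values on replicate 1 and the low values on replicate 3, and all triangles lie under the open circle on replicate 4.

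The nuclear genes of complex IV were set beside COX2. For the 19 nuclear subunits of complex IV the list median was -0.05, -0.09, -0.06 and -0.09 on replicates 1 to 4. COX2 lay away from that median by 1.41, 0.31, -1.16 and 0.99. The mean ratio over pairs was positive for 7 of the subunits and negative for 12, so the median does not stand for each of them. In limma 0 of 19 passed the adjusted threshold. An unadjusted p under 0.05 was found for 0 positive and 2 negative subunits, and for 1.59% (positive) and 2.05% (negative) of all genes. Those 2 were Cox6a2 and Cox5b. Cox6a2, the isoform of heart and skeletal muscle, had -1.48, -1.75, -1.22 and -0.66, negative in every pair, with a mean of -1.28 (95% interval -1.81 to -0.74; adjusted p = 0.9997) from 1 spot. Cox5b, a subunit on the matrix side, had -0.14, -0.62, -0.11 and -0.30 (mean -0.29, adjusted p = 0.9997). Cox7a1, another muscle isoform, lay nearest to both members, with 1.26, -0.51, 0.09 and 0.44.

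The factors that mature the COX2 protein were examined by name. Cox18 inserts the protein into the inner membrane, Cox20 chaperones it, and Sco1, Coa6, Cox16 and Cox17 take part in delivering its copper. Cox18 had log2 ratios of -0.43, 0.56, -0.41 and 0.50 and Cox20 had -0.56, 0.62, -0.31 and 0.68. Both changed sign with the dye orientation, unlike COX2. Read as not turned, both would be negative in every pair, with means of -0.47 and -0.54. Sco1 (-0.24, 0.11, -0.17 and 0.46), Cox16 (-0.26, 0.18, -0.31 and 0.33) and Coa6 (-0.40, 0.73, -0.09 and 0.02) were negative on replicates 1 and 3 and positive on replicates 2 and 4. Cox17 had the opposite signs, with 0.07, -0.18, 0.09 and -0.55. Read as not turned, Sco1, Cox16 and Coa6 would be negative and Cox17 positive in every pair. Of all nuclear lists set beside the members here, 0 genes passed limma's adjusted threshold on that reading. Over the 23 measured assembly factors of complex IV the list median was -0.06, 0.00, -0.18 and 0.04. In limma 0 passed the adjusted threshold or an unadjusted p under 0.05, which 3.64% of all genes had. The members of smallest p were Cox15, of heme A synthesis, with a mean of -0.10, and Cox17. Pet100 was nearest to COX2, with 0.36, -0.05, -0.81 and -0.18, from spots that disagreed (means of -0.41 and 0.07).

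The nuclear genes of complex I were set beside ND4L in the same way. The 35 measured nuclear subunits had list medians of 0.19, -0.14, -0.01 and 0.12 on replicates 1 to 4. ND4L lay away from them by 0.98, -0.01, -0.62 and 0.69. In limma 0 of 35 passed the adjusted threshold. An unadjusted p under 0.05 was found for 1 positive and 2 negative subunits, beside 1.59% and 2.05% of all genes. Ndufb2, an accessory subunit, had 0.37, -0.04, 0.54 and 0.30, and Ndufa13, an accessory subunit also known as a cell death regulator, had 0.03, -0.48, -0.13 and -0.55. Ndufa11, an accessory membrane subunit, was nearest to ND4L at a distance of 0.79, with 0.63, -0.14, -0.29 and 0.34. The 19 measured assembly factors had medians of -0.04, -0.04, 0.08 and 0.03, with 0 past the adjusted threshold in limma. Beside the same shares of all genes, 0 positive and 1 negative assembly factor had an unadjusted p under 0.05. Timmdc1, which helps assemble the membrane arm, had the smallest p among them, at -0.04, -0.49, -0.35 and -0.21, from spots that disagreed (means of -0.61 and 0.07). Aifm1 (0.27, 0.20, 0.14 and 0.06) followed, and Ndufaf5 was nearest to ND4L, with 0.29, -0.04, 0.03 and 0.46.

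The genes that copy, transcribe and process mitochondrial DNA had list medians between -0.11 and 0.18 on every array. The 34 measured genes of transcription and RNA processing had list medians of -0.03, 0.00, 0.05 and -0.00, and the 20 of DNA maintenance had 0.01, 0.03, 0.18 and -0.11. In limma 0 of 34 and 0 of 20 passed the adjusted threshold. An unadjusted p under 0.05 was found for 1 and 0 of them, beside 3.64% of all genes. Polrmt, the RNA polymerase, had 0.23, -0.21, -0.04 and 0.09. Tfam, which packages the genome and starts its transcription, had 0.02, -0.17, -0.00 and -0.29, from spots with means between -0.34 and 0.05. Lrpprc and Slirp together stabilise the messengers of heavy-strand genes such as these. Lrpprc had -0.07, -0.02, 0.55 and 0.12, highest on the array where COX2 was lowest. Slirp had 0.41, 0.05, -0.45 and 0.21 and was the nearest of its list to both members, at 1.42 from COX2 and 1.00 from ND4L. The pseudouridine synthase Trub2 had the smallest p (0.57, 0.11, 0.51 and 0.01), followed by Fastkd3 (-0.12, 0.23, 0.26 and 0.43). In DNA maintenance these were Top1mt, a topoisomerase (-0.02, -0.19, -0.14 and -0.14), and Ssbp1, the single-strand binding protein (0.05, 0.64, 0.45 and 0.00). Rnaseh1, which removes RNA from hybrids, was nearest to both members there (0.59, 0.04, -0.12 and 0.06).

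**Figure D5:**
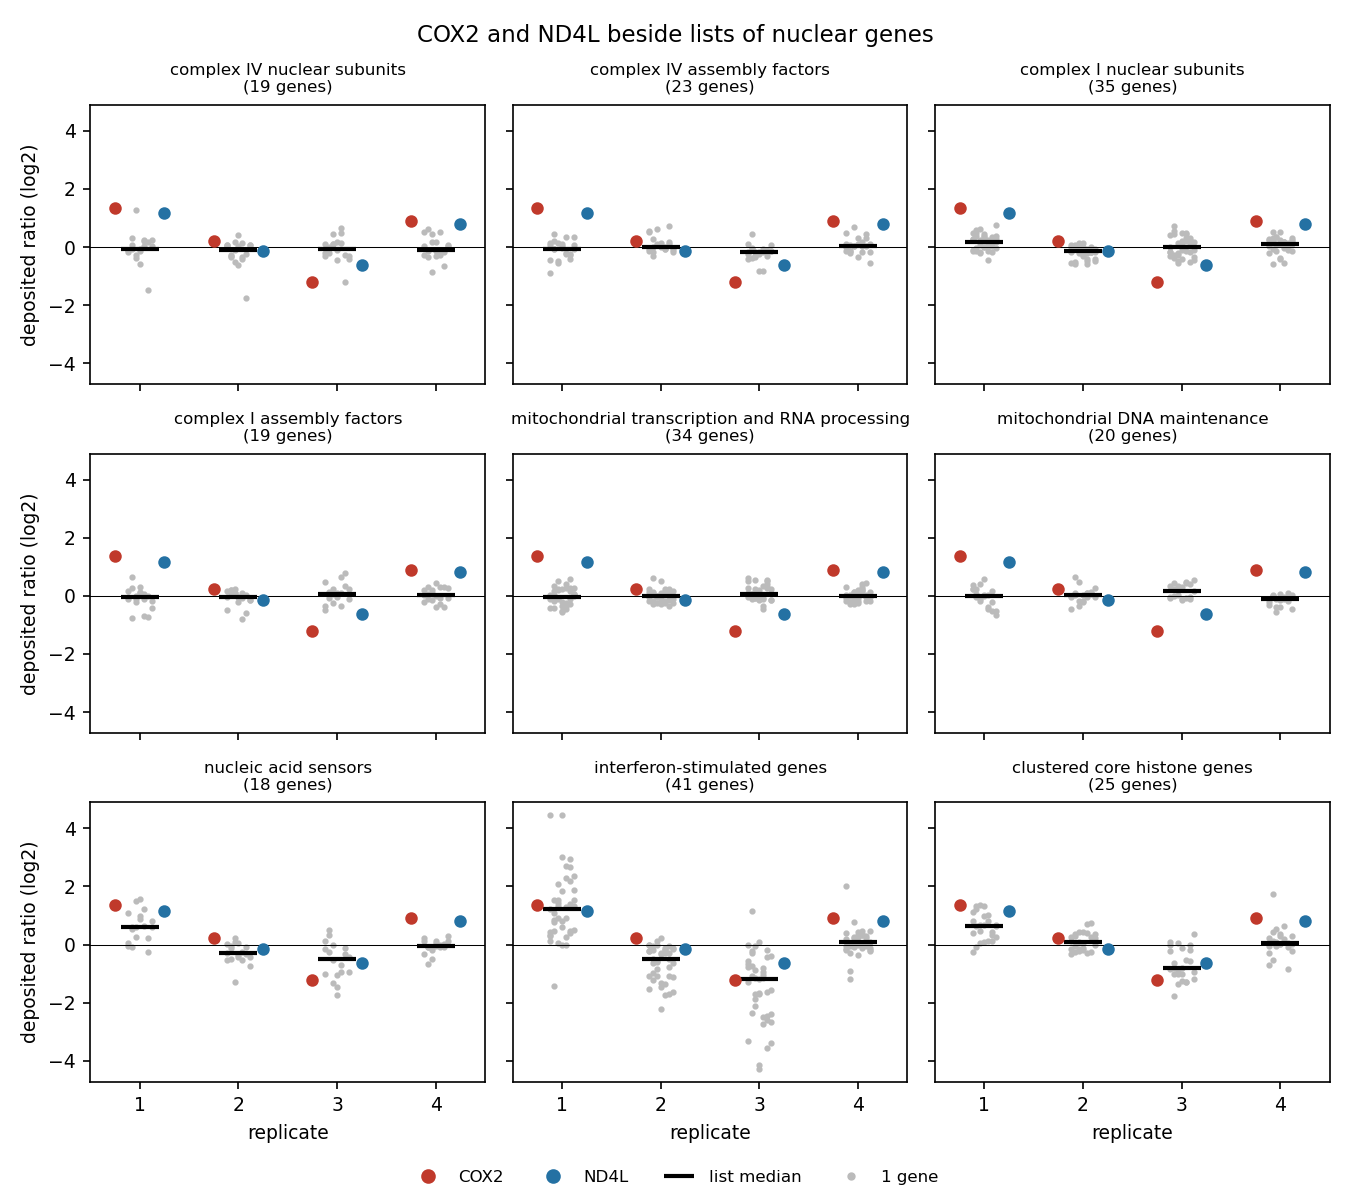
Log2 ratios on 4 arrays for 9 lists of nuclear genes (grey points, black bars for list medians), each beside COX2 (red) and ND4L (blue). The 6 lists of mitochondrial function have medians between -0.18 and 0.19 on every array, while interferon-stimulated and clustered histone genes are high on replicate 1 and low on replicate 3.

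Interferon-stimulated genes were high and low on the same arrays as the mitochondrial transcripts on replicates 1 and 3. RNA and DNA that leave mitochondria can set off interferon through sensors in the cytosol, which is why they are set beside the members here. Over 41 measured genes the list median was 1.21, -0.51, -1.18 and 0.08 on replicates 1 to 4. The median and COX2 were within 0.15 of each other on replicates 1 and 3 (COX2 minus the median was 0.15 and -0.03) but apart by 0.73 on replicate 2 and 0.82 on replicate 4. ND4L minus the median was -0.04, 0.36, 0.56 and 0.72 on replicates 1 to 4. The SD over pairs of the listed genes had a median of 1.05 and reached 3.76, so the list median does not stand for each gene. Of the 41, 37 had a positive ratio on replicate 1 with a negative one on replicate 3, as both members had, against 23.8% of all genes. In limma 0 of 41 passed the adjusted threshold. Beside 1.59% (positive) and 2.05% (negative) of all genes, 0 positive and 1 negative gene of the list had an unadjusted p under 0.05. That gene was the chemokine Ccl5 (-1.42, -0.99, -0.30 and -0.90), and Ifit2 followed (-0.01, -0.18, -0.81 and -0.11). Of the 100 genes nearest COX2, out of 19087 others, 10 were on this list, and of those nearest ND4L, 4. The list holds Samd9l and Trim30a and was chosen with earlier results of these data known, so these counts are description only. The part of interferon in the mitochondrial ratios was not tested.

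Sensors of nucleic acids had smaller swings. The 18 genes had list medians of 0.60, -0.30, -0.49 and -0.06. Of them, 13 (72.2%) were positive on replicate 1 with a negative value on replicate 3, against 23.8% of all genes. Adar, the RNA editing enzyme that keeps cellular double-stranded RNA from being sensed, was nearest to both members, with 1.07, -0.28, -0.996 and 0.23. Sting1 and Mavs, the adaptors of the DNA and RNA pathways, had the smallest p. Sting1 had -0.26, -0.32, -0.32 and -0.08 and Mavs 0.59, -0.06, 0.32 and -0.10, so that neither had the pattern of the members. In limma 0 of 18 passed the adjusted threshold. An unadjusted p under 0.05 was found for 0 positive and 1 negative sensor, beside 1.59% and 2.05% of all genes.

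Histone genes were looked at as a group because several were near the members, so this list was chosen after its values were seen and has no test. The 25 measured core histone genes of the clusters had list medians of 0.63, 0.10, -0.80 and 0.07 on replicates 1 to 4. Of them, 19 (76%) were positive on replicate 1 and negative on replicate 3, against 23.8% of all genes. Among the 100 genes nearest COX2, out of 19087 others, 12 were on this list, and among those nearest ND4L, 6. These counts follow in part from how the list was chosen. On replicate 4 the histone median lay 0.84 below COX2. Messengers of clustered histone genes end in a stem-loop and mostly lack a poly(A) tail. The replacement histone genes, whose messengers carry one, had medians of 0.04, -0.14, 0.02 and -0.08 over 5 measured genes. Clustered histone genes are near-identical copies whose spots can read each other's messengers, so they are not separate observations. The labels' protocols give a T7 promoter primer for the labelling, and no measure of RNA quality is among the values used here. Interferon-stimulated genes had wider swings than the clustered histone genes, with medians of 1.21 and -1.18 on replicates 1 and 3. The part of the poly(A) tail, RNA quality, labelling or any other difference between the cultures in these ratios was not tested.

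Ptgs2, the nuclear gene also called COX2, lay near 0 in every pair. Its mean over 11 spots was -0.07, 0.09, -0.01 and -0.01 on replicates 1 to 4. No spot of Ptgs2 was free of dim values, in the sense of shared values given above, so these ratios near 0 say little of the gene.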

How the data were processed

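Total RNA of 4 pairs of mtB6 and mtBALB cultures was hybridised to 2-colour Agilent mouse arrays, per the labels' protocols. The deposited values are the authors' log ratios per spot, taken as log2 because limma, which the submitters' processing notes name without a version, works on that scale. How the authors corrected background, normalized or filtered, and the logarithm's base, are not stated there. Array medians lay between -0.0033 and 0.0051, so the arrays were centred before deposit. Precision is limited by having 4 arrays, and spot brightness was not used here. The swapped arrays were taken as already turned to a common direction, which the sources do not state. Of 171 unnamed spots with absolute ratios of 0.6 or more on every array, 163 changed sign with the dye orientation. Of these 171, 0 kept 1 sign. Dye-bound control transcripts would change sign after turning, but a line difference would do so on arrays that were not turned. What these spots measure is not stated, so they cannot decide between the readings. Over all spots, which include these, arrays of opposite orientation correlated between -0.24 and -0.17. Those of the same orientation correlated at -0.002 (replicates 1 and 3) and 0.27 (replicates 2 and 4). Over genes the correlations did not follow the orientation, from -0.19 (replicates 1 and 3) to 0.05 (replicates 1 and 4). The other reading was run as an alternative.

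Of 45220 spots, 33653 had 1 gene, 56 several and 11511 none; only the first were used. Spots of a gene were averaged, and 18966 of 19088 genes matched the RefSeq table of GRCm38.p6 by gene ID, which gave symbols and gene order. The line difference was fitted in limma 3.58.1 (R 4.3.3) with lmFit and eBayes over all genes, with the mean ratio and the dye orientation as terms, and adjusted by Benjamini-Hochberg over all genes. The SD of a gene includes the dye effect. The fit was tested on simulated data. Distances and permutation tests used Python 3.11.15.

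The members, lists, tests and alternatives were chosen with earlier results of these data known, and the histone lists after their values were seen. Named genes are the members, the 6 named genes nearest each, the 2 of smallest p and those nearest the members in each list, and regulators chosen by name. Alternatives left out the dye term, a replicate or dim spots, kept spots apart, changed direction, scale or variance moderation, or used ranks.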

Additional observations from a re-analysis of the deposited data

Results flagged for a closer look

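Beyond the named genes, 163 unnamed spots had large ratios that changed sign with the dye orientation on the 4 arrays. With all arrays read in the direction of the dye, 75 of them had medians of 2.28, 2.52, 1.70 and 2.47 on replicates 1 to 4, and 88 had -0.76, -0.91, -1.93 and -0.95. On both sides replicate 3 lay lower than the other 3 arrays, by 0.58 or more and by 0.98 or more. In the deposited ratios COX2 and ND4L were both lowest on replicate 3. Read in the direction of the dye like these spots, COX2 was lowest on replicate 3 (-1.22) but ND4L on replicate 4 (-0.81). What these spots measure is not stated by the sources, and their part in the members' ratios was not tested. Neither member, nor their difference, nor any of the other genes and list medians examined (59 in all) had 1 array far from the other 3 by Dixon's criterion for 4 samples.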

How the results depend on the processing

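In limma neither member passed the adjusted threshold under any of 11 alternatives, with adjusted p-values from 0.464 to 0.9999 for COX2 and from 0.537 to 0.9999 for ND4L. Read as not turned, the line difference was -0.25 for COX2 and -0.030 for ND4L, COX2 minus ND4L was -0.21, and the dye effects became 0.31 and 0.30. Leaving out 1 replicate gave line differences from -0.33 to 0.96 (COX2) and -0.15 to 0.75 (ND4L), a COX2 minus ND4L from -0.10 to 0.22, and dye effects from -0.89 to 0.40 and -0.48 to 0.42. It gave 0.309% to 3.71% of genes with an SD at least that of COX2 and 1.02% to 2.25% for ND4L, and ranks from 3 to 48 for ND4L by nearness to COX2 and from 9 to 670 for the reverse. On ranks within arrays these ranks were 36 and 78, and with each spot as a feature the second was 42. With never dim spots only, the SD shares were 1.23% and 2.97%. The count of genes past the adjusted threshold was 0 under every alternative; at an unadjusted p under 0.05 it was 694 as reported, 1714 as not turned, 270 with never dim spots only, 1188 over spots, and 426 to 1579 without 1 replicate. The cause of these shifts was not tested. With 3 arrays and a dye term, 1 residual degree of freedom is left.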

Other observations

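The deposited values differ in format by dye orientation. On replicates 1 and 3, 99.3% and 98.7% of values have more than 6 significant digits, against 0.0265% and 0.0663% on replicates 2 and 4. Whether the arrays of the 2 orientations were processed in different ways is not given in the sources used here.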
